A study of Mus musculus with 8 samples.

Results

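The transcripts of 10 pluripotency transcription factor genes were examined for N6-methyladenosine (m6A) peaks on chromatin-associated RNA of mouse embryonic stem cells. The genes were Pou5f1, Sox2, Nanog, Klf4, Klf2, Klf5, Esrrb, Tfcp2l1, Tbx3 and Nr5a2, and a peak was taken as theirs when its midpoint lay in the span of the gene on the same strand. Of the 17068 peaks in the 3 deposited lists, 36 met this rule.

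The 36 peaks come from ChrMeRIP-seq, in which chromatin-associated RNA, a fraction rich in nascent and still unspliced transcripts, is fragmented and pulled down with an antibody against m6A. The 8 libraries form 4 groups of 2 replicates, all from E14 mESC, an established mouse embryonic stem cell line, grown without treatment in 10% serum and 1000 U/mL of LIF (leukaemia inhibitory factor, the cytokine that keeps these cells undifferentiated). SySy_ChrMeRIP was pulled down with the Synaptic Systems antibody and Abcam_ChrMeRIP with the Abcam antibody, and SySy_Input and Abcam_Input are the RNA before pull-down. Confidence group 1 (Cfg1, 5277 peaks) was called with both antibodies, confidence group 2 (Cfg2, 5472 peaks) with SySy where the Abcam signal was too weak to be called, and confidence group 3 (Cfg3, 6319 peaks) with Abcam where SySy gave almost no signal. Cfg1 and Cfg2 together are called SySy-called below. By the study's methods, the libraries of each antibody were made with a different kit, whereas the deposited labels name the same kit for all libraries. If the methods hold, antibody and kit cannot be told apart in a difference between lists. The lists were made from pooled duplicates and hold positions only. Depth, peak height and the values of single libraries are not in them, which left no replicate error to compute and no test to run, and the 95% Wilson intervals below cover counting error only.

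Pluripotency rests on a small circuit of transcription factors that bind each other's enhancers. POU5F1 (OCT4) and SOX2 bind DNA together and, with NANOG, form its core, while the Krüppel-like factors and ESRRB, TFCP2L1, TBX3 and NR5A2 hold cells in the naive state and link the core to LIF signalling. m6A is placed on adenosines of a short consensus by the METTL3-METTL14 complex while RNA is being made, is most often found in long internal exons and around stop codons, and shortens the life of many mRNAs. Transcripts of pluripotency factors are among its known targets in embryonic stem cells, and loss of METTL3 delays the exit of these cells from pluripotency. Cultures in serum and LIF are uneven in their levels of naive factors, and in bulk RNA fewer cells that make a transcript and less of it per cell cannot be told apart.

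The sequences around GGACT, the most favoured form of the m6A consensus (GGACU in RNA, with the adenosine in the middle as the methylated base), show where candidate sites lay inside the peaks. GGACT occurred 13 times in 11 of the 36 peaks and in 7 of the 10 genes, against 54.7% of the 5511 protein-coding genes with a peak. All 13 are printed as windows of 25 nt, read 5′ to 3′ on the strand of the RNA from mouse assembly GRCm38.p6 (RefSeq, the coordinates of mm10), with GGACT in capitals. A match is a run of letters inside a peak and does not show which base was methylated.
Pou5f1, Cfg2, coding sequence of exon 1, chr17:35506315-35506339, plus strand: acctcaggttGGACTgggcctagtc
Nanog, Cfg1, coding sequence of exon 4, chr6:122713386-122713410, plus strand: acttcggggaGGACTttctgcagcc
Klf4, Cfg2, 5′ UTR, chr4:55531890-55531914, minus strand: tctcttcttcGGACTccggaggacc
Klf4, Cfg2, intron 1, chr4:55531838-55531862, minus strand: gtgagatgttGGACTtgggaacaga
Klf4, Cfg2, coding sequence of exon 3, chr4:55530143-55530167, minus strand: ctccccaccaGGACTacccctacac
Klf4, Cfg2, coding sequence of exon 3, chr4:55530100-55530124, minus strand: tgaacagcagGGACTgtcaccctgg
Klf4, Cfg2, 3′ UTR, chr4:55527792-55527816, minus strand: gaacatgcccGGACTtacaaaatgc
Klf2, Cfg2, coding sequence of exon 2, chr8:72319475-72319499, plus strand: acaacgtgttGGACTtcatcctctc
Esrrb, Cfg2, coding sequence of exon 2, chr12:86470379-86470403, plus strand: agagctacgaGGACTgtactagtgg
Esrrb, Cfg2, coding sequence of exon 2, chr12:86470403-86470427, plus strand: gtatcatggaGGACTccgccatcaa
Tbx3, Cfg3, coding sequence of exon 2, chr5:119674050-119674074, plus strand: gaggtgctctGGACTggataaaaag
Tbx3, Cfg1, 3′ UTR, chr5:119683325-119683349, plus strand: ttgaaacgcgGGACTgagggggcgg
Nr5a2, Cfg1, coding sequence of exon 6, chr1:136940931-136940955, minus strand: tcgagccaatGGACTtaagctggaa

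Sox2, Klf5 and Tfcp2l1 held no GGACT in any peak. For these genes the window shows, in 1 SySy-called peak each, the consensus pentamer nearest to the midpoint in capitals. The consensus takes A, G or T, then A or G, then AC, then A, C or T, which makes 18 pentamers, of which GGACT is 1.
Sox2, Cfg1, 3′ UTR, chr3:34651512-34651536, plus strand: ctgcggaaaaAAACCaccaatccca
Klf5, Cfg2, 5′ UTR, chr14:99298797-99298821, plus strand: ggctgcccgaGGACCtcggcggtga
Tfcp2l1, Cfg2, 3′ UTR, chr1:118684889-118684913, plus strand: tgctttgatgTGACTctttcttgag

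At least 1 SySy-called peak lay in each of the 10 genes, whereas 19.7% of 21938 protein-coding genes held a SySy-called peak, and 78.3% of the 5511 that held a peak of any list did. Cfg1 peaks lay in 5 of the 10 genes, against 12.2% of all protein-coding genes. Cfg2 peaks lay in 7 (13.7% of all protein-coding genes) and Cfg3 peaks in 6 (13.3%). The lists hold no expression, so a gene without a peak cannot be told from a gene that was not transcribed, and the shares among genes with a peak, 48.4% for Cfg1, 54.6% for Cfg2 and 52.8% for Cfg3, are the nearer comparison. The 10 genes held a median of 3 peaks, and all genes with a peak a median of 2. A single peak was found in 2 of the 10 genes, Pou5f1 and Tfcp2l1, and in 39% of all genes with a peak, whereas 1 of the 10, Klf4, and 3.27% of all genes with a peak held 10 or more.

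By list, the 36 peaks divide into 8 in Cfg1, 19 in Cfg2 and 9 in Cfg3. Cfg2 thus held 52.8% of them (95% Wilson interval 37.0 to 68.0%), against 32.4% of the 15282 peaks in protein-coding genes. Klf4 alone held 10 of the 19. Without Klf4, Cfg2 held 9 of 26 peaks or 34.6% (19.4 to 53.8%). Since broad enrichments had been split between summits, the 36 peaks go back to 26 calls and are not independent of each other. Sox2 held peaks of all 3 lists, which 13.1% of genes with a peak do. Pou5f1, Klf4 and Tfcp2l1 held peaks of Cfg2 only, as did 1179 of the 5511 genes with a peak.

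**Figure D1:**
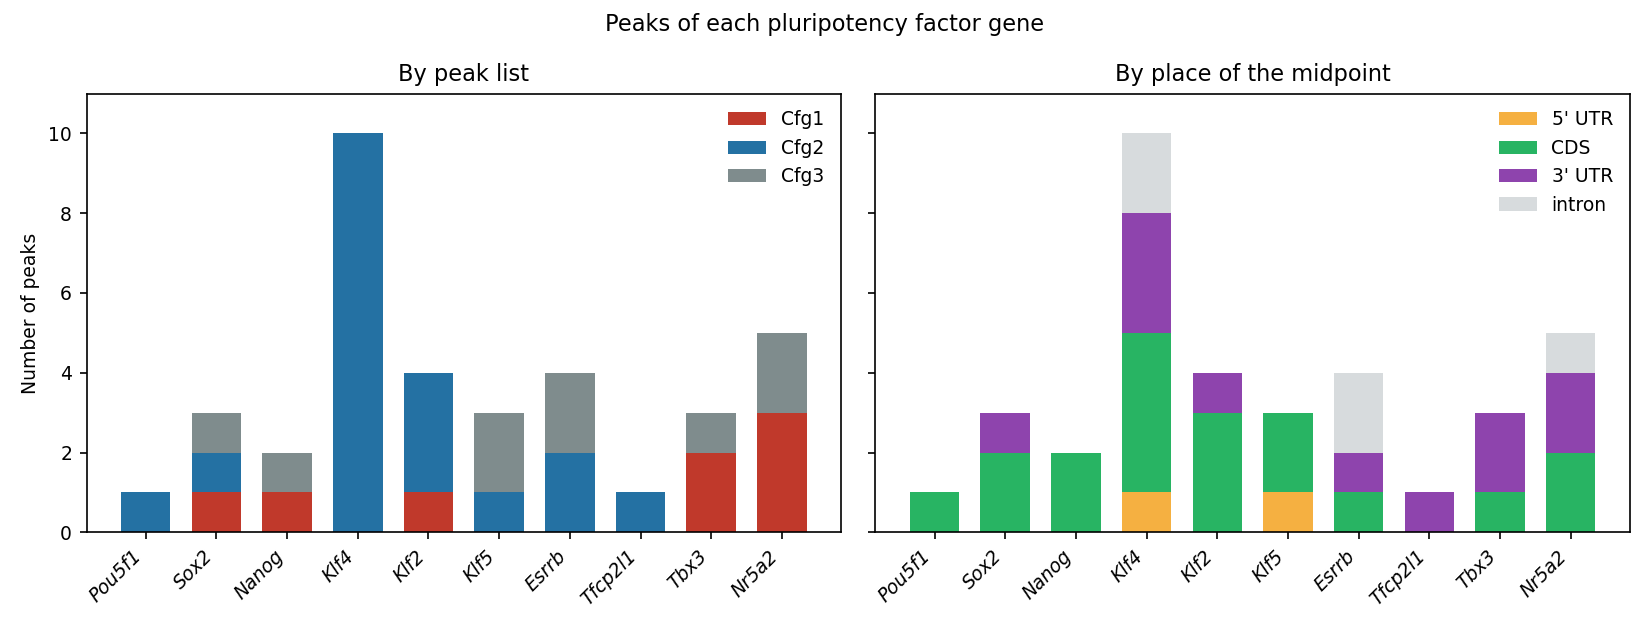
Number of peaks (y axis) of each of the 10 pluripotency factor genes (x axis), stacked by peak list on the left and by the place of the midpoint in the representative transcript on the right. Klf4 stands above the others with 10 peaks, all of Cfg2, and Pou5f1 and Tfcp2l1 have 1 peak each.

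Among the core factors, Pou5f1, which encodes the POU-domain factor OCT4, carried a single peak. It was a Cfg2 peak of 250 nt, the greatest width the lists allow, at chr17:35506159-35506408, in the coding sequence of exon 1 of 5. Its midpoint lay 265 nt from the gene start and 875 nt before the stop codon, counted in spliced bases. GGACT stood 44 nt after the midpoint. The peak lay at the 5′ end of the coding sequence, far from the stop codon, and its midpoint was exonic in 1 of the 6 annotated transcripts. It covered 18.4% of the short spliced transcript of 1362 nt.

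Sox2, the single-exon gene of the HMG-box partner of OCT4, carried 1 peak of each list, in an order along the RNA. The Cfg3 peak (chr3:34650586-34650777) was centred 694 nt before the stop codon, the Cfg2 peak (chr3:34650826-34651005) 460 nt before it, and the Cfg1 peak (chr3:34651409-34651558) 108 nt after it, in the 3′ UTR. The Abcam-only peak was thus nearest to the 5′ end and the peak called with both antibodies nearest to the 3′ end. None held GGACT, but each held 2 to 4 consensus pentamers. All 3 also lay within the span of Sox2ot, the long noncoding RNA gene that runs through the Sox2 locus on the same strand, so that the lists alone cannot give them to 1 of the transcripts.

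Nanog, which encodes the homeodomain factor of the core, carried a Cfg1 peak at chr6:122713236-122713416 and a Cfg3 peak at chr6:122713426-122713543. Both lay in the coding part of the last exon (exon 4), with midpoints 229 and 71 nt before the stop codon and a gap of 9 nt between them. The pair formed a nearly unbroken stretch, of which the 5′ part was called with both antibodies and the 3′ part with Abcam alone. GGACT was found in the Cfg1 part, 157 nt before the stop codon, and not in the Cfg3 part. Both midpoints were exonic in all 3 annotated transcripts. No peak of any list lay in the 2 annotated Nanog pseudogenes.

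Of the Krüppel-like factors, zinc-finger proteins that share DNA targets in embryonic stem cells, Klf4 carried the most peaks. Its 10 peaks, all Cfg2, came from 4 calls and formed 5 regions once peaks within 10 nt of each other were joined. Along the RNA they lay in the 5′ UTR in exon 1, in intron 1, in intron 2, in the coding sequence of exon 3 (4 peaks, with midpoints from 1103 to 494 nt before the stop codon) and in the 3′ UTR (3 peaks, 359, 528 and 682 nt after it). In total 46.0% of the spliced transcript of 3029 nt was covered. The 3′ UTR region was 472 nt long (chr4:55527377-55527848), the longer of the regions in exon 3 was 485 nt (chr4:55530092-55530576), and none lay within 200 nt of the stop codon.

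Klf4 was 1 of 26 genes with at least 10 Cfg2 peaks, 0.472% of the 5511 genes with a peak. The other 25 all carried Cfg1 peaks as well, between 1 and 21 of them with a median of 8. Klf4 was the only 1 of the 26 with none (0.0181% of genes with a peak), a comparison chosen after its values were seen. Of 1646 genes with a Cfg2 peak and no Cfg1 peak, the next highest Cfg2 count after Klf4 was 8. Of 1179 genes whose peaks were all Cfg2, 830 had 1 peak and the next highest count after Klf4 was 6. The lists thus record a transcript enriched by SySy over much of its length, where no peak reached the calling threshold with Abcam. How far under it the Abcam signal stayed is not in the lists.

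The intronic peaks of Klf4 both reached into an exon. Intron 1 is 116 nt long, and its peak (chr4:55531738-55531852) was 115 nt wide with 13 nt in the neighbouring exon of the representative transcript. Its midpoint lay 72 nt from the 5′ splice site and 45 nt from the 3′ splice site, and GGACT stood 17 nt from the 5′ splice site. Intron 2 is 646 nt long, and its peak (chr4:55530963-55531077) ended 21 nt into exon 3, with the midpoint 37 nt before the 3′ splice site and no GGACT. Neither midpoint was exonic in any of the 3 annotated Klf4 transcripts. GGACT occurred 5 times in 4 of the 10 Klf4 peaks, which are the 5′ UTR, intron 1, 1 coding and 1 3′ UTR peak printed above.

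Klf2, which encodes another Krüppel-like factor that sustains the naive state, carried 3 Cfg2 peaks in the coding sequence of exon 2 and 1 Cfg1 peak after the stop codon. The Cfg2 midpoints lay 868, 658 and 329 nt before the stop codon, and the Cfg1 peak (chr8:72320890-72321139) was centred 95 nt after it in the 3′ UTR. As in Sox2, Cfg2 preceded Cfg1 along the RNA. The coding peaks were very rich in G and C, at 68.9%, 80.0% and 77.1%, against 55.6% in the Cfg1 peak and a median of 51.8% over all Cfg2 peaks in coding genes. The last of them (chr8:72320035-72320143) was the only peak of the 36 with no consensus pentamer, and GGACT occurred in the foremost of them, 931 nt before the stop codon. Of the 5511 genes, 28 had more of their spliced transcript covered by peaks than Klf2, which is 1847 nt long.

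Klf5, whose product supports self-renewal and restrains differentiation, carried no Cfg1 peak. A Cfg2 peak (chr14:99298801-99298930) lay in the 5′ UTR with its midpoint 174 nt from the gene start and a GC content of 80.0%. A pair of Cfg3 peaks from 1 call (chr14:99301737-99302071 together) lay in the coding sequence of exon 2, 691 and 523 nt before the stop codon. No SySy-called peak lay nearer to them than 2806 nt. Of the 36 peaks, that of the Klf5 5′ UTR was the nearest to an end of its gene. The antibodies also bind m6Am, a methylated base next to the cap. None of the 36 midpoints lay within 100 nt of a gene start, against 0.124% of all peaks in coding genes. For 0 of 36, the limit that a count of 0 allows, taken as 3 counts, is 8.33%, and the upper Wilson bound is 9.64%. The distance was taken from the outermost annotated start of the gene. With so low a share over all peaks, 0 of 36 says nothing about m6Am.

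Of the genes that complete the naive circuit, Esrrb, which encodes an orphan nuclear receptor, carried 2 Cfg2 peaks in exons and 2 Cfg3 peaks in an intron. The Cfg2 peak of exon 2 (chr12:86470380-86470532) was centred 1004 nt before the stop codon and held GGACT at 2 places 24 nt apart. The Cfg2 peak of the last exon (chr12:86519015-86519153) spanned the stop codon, with its midpoint 19 nt after it. The SySy-called peaks thus marked an early coding exon and the stop codon. The Cfg3 peaks (chr12:86477749-86477857 and chr12:86478637-86478814) lay deep in intron 2, a 17991 nt intron, at 7248 and 8170 nt from its 5′ splice site. They touched no exon of any of the 6 annotated transcripts and held no GGACT.

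Tfcp2l1, which encodes a CP2-family factor downstream of LIF and STAT3, carried 1 peak. It was a Cfg2 peak of 100 nt (chr1:118684887-118684986) in the 3′ UTR, 7502 nt after the stop codon in a last exon of 7781 nt and 232 nt from the end of the gene. This was the peak farthest from its stop codon among the 31 exonic peaks, and it covered 1.08% of the transcript. Tfcp2l1 had the fewest peaks per length of the 10 genes.

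Tbx3, which encodes a T-box repressor, carried 2 Cfg1 peaks from 1 call in the 3′ UTR and a Cfg3 peak upstream. The Cfg1 midpoints lay 216 and 424 nt after the stop codon (chr5:119683204-119683618 together), and the former held GGACT. The Cfg3 peak (chr5:119673999-119674199) lay in exon 2, 1763 nt before the stop codon and 9004 nt in the genome from the nearest SySy-called peak. It was the only Cfg3 peak of the 9 with GGACT.

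Nr5a2, which encodes the orphan nuclear receptor LRH-1, an activator of Pou5f1, carried 3 Cfg1 and 2 Cfg3 peaks. A pair of Cfg1 peaks from 1 call lay in the 3′ UTR, 83 and 273 nt after the stop codon (chr1:136845096-136845475 together). The remaining Cfg1 peak (chr1:136940838-136940973) lay in exon 6, 1012 nt before the stop codon, and held GGACT. A Cfg3 peak (chr1:136940978-136941106) lay 4 nt from it towards the 5′ end and had 72 of its 129 nt in exon 6, the others in intron 5. As in Nanog, an Abcam-only peak thus abutted a peak called with both antibodies. The other Cfg3 peak (chr1:136949253-136949380) lay in intron 2, 2786 nt from its 5′ splice site, at a place that is exonic in 1 of the 6 annotated transcripts.

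**Figure D2:**
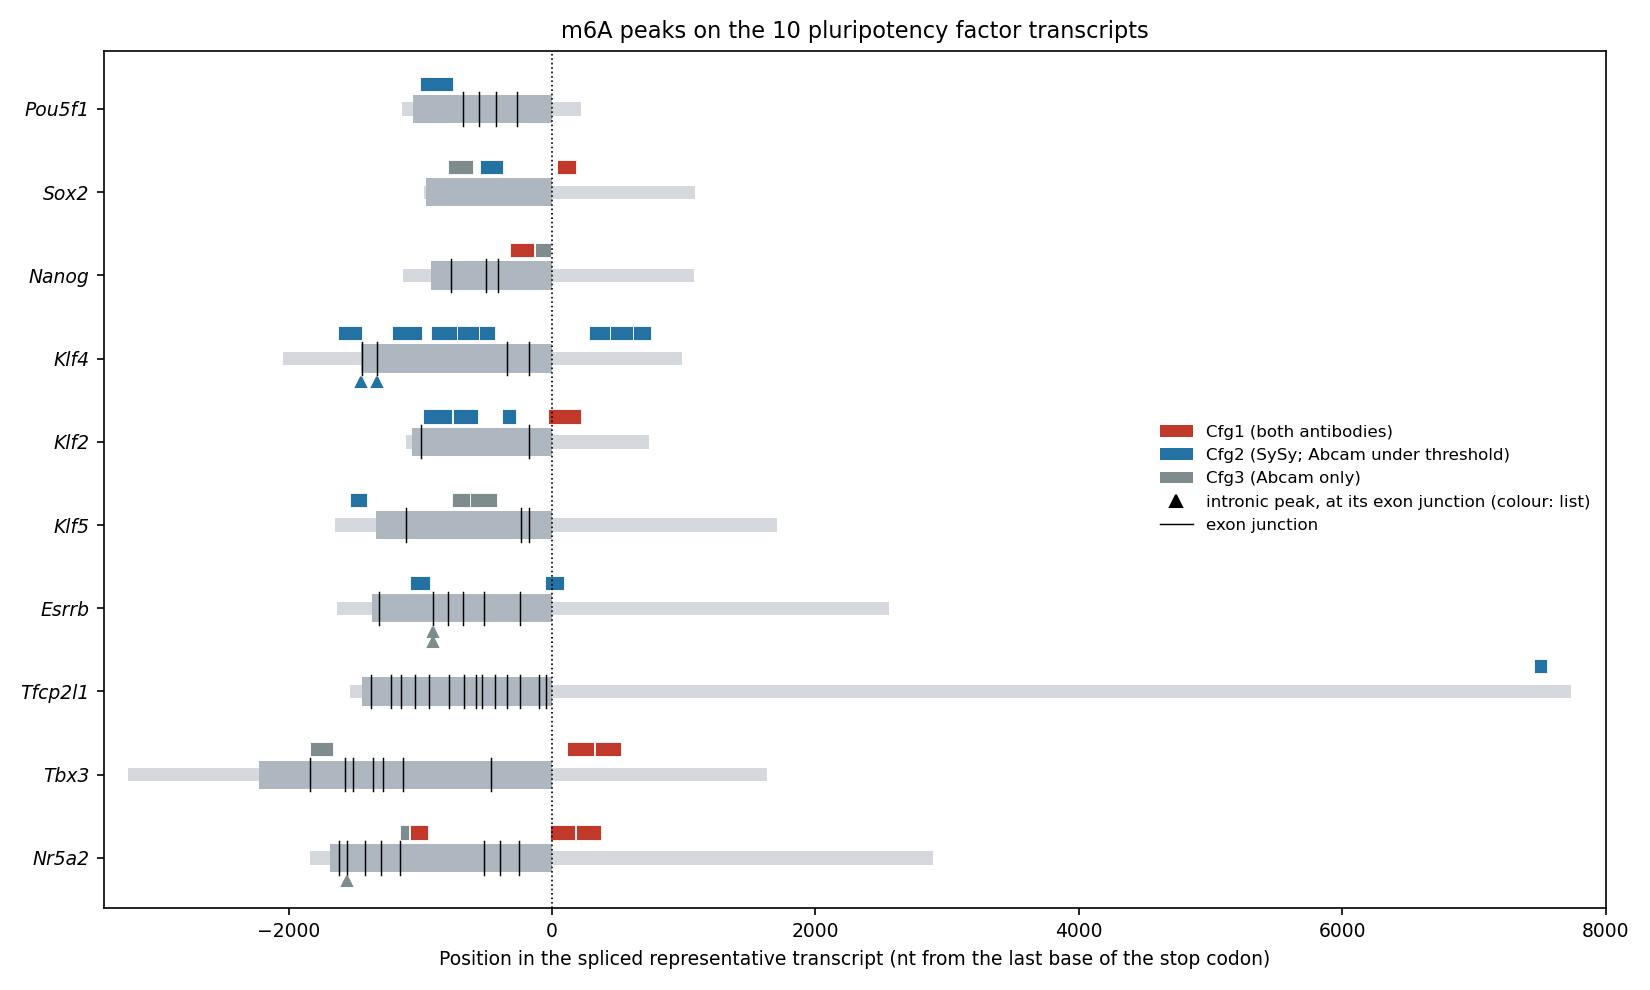
Spliced representative transcripts of the 10 genes, to scale and aligned at the stop codon (x axis, nt), with the coding sequence as thick and the UTRs as thin grey bars, exon junctions as black lines, and exonic peaks as coloured blocks above. Triangles below mark peaks whose midpoint lies in an intron, drawn at the junction where the intron was removed, stacked where there are 2. Red Cfg1 blocks stand just after the stop codon in Sox2, Klf2, Tbx3 and Nr5a2, and blue Cfg2 blocks fill much of Klf4.

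Read across the genes, the counts by place differed between the lists, without a test. Of the 8 Cfg1 peaks, all exonic, 6 lay in the 3′ UTR, between 83 and 424 nt after the stop codon. These were in 4 of the 5 genes with a Cfg1 peak (95% Wilson interval of the share of peaks 40.9 to 92.9%). This interval takes the 8 peaks as independent and is too narrow, since the 3′ UTR pairs of Tbx3 and Nr5a2 were 1 call each. Once peaks within 10 nt were joined, 4 of 6 Cfg1 regions lay in the 3′ UTR. Over all coding genes the 3′ UTR held 31.1% of exonic Cfg1 peaks. Nanog was the exception among the 5 genes. Of the 17 exonic Cfg2 peaks, 10 lay in coding sequence (58.8%, 36.0 to 78.4%, against 49.8% over all coding genes), 5 in the 3′ UTR (29.4%, against 43.0%) and 2 in the 5′ UTR (11.8%, against 7.27%). Without Klf4 these counts were 6, 2 and 1 of 9. All 6 exonic Cfg3 peaks lay in coding sequence (100%, 61.0 to 100%, against 82.1%). The counts are small, several peaks share a call, and these shares were not tested.

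Within 200 nt of the stop codon lay 5 of the 31 exonic peaks, or 16.1% (7.09 to 32.6%), and over all coding genes 22.2%. They belonged to Sox2, Nanog, Klf2, Esrrb and Nr5a2. The last exon held 15 of the 31 (48.4%, 32.0 to 65.2%, against 56.6%). For both shares the value of all coding genes lay inside the interval of the pluripotency factors. By list, 3 of 8 Cfg1 peaks (24.6% over all coding genes), 1 of 17 exonic Cfg2 peaks (5.88%, 1.05 to 27.0%, against 23.3%) and 1 of 6 exonic Cfg3 peaks (15.5% over all coding genes) lay that near to the stop codon. Klf4 held 8 of the 17 exonic Cfg2 peaks, and without it the count was 1 of 9 (11.1%, 1.99 to 43.5%).

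**Figure D3:**
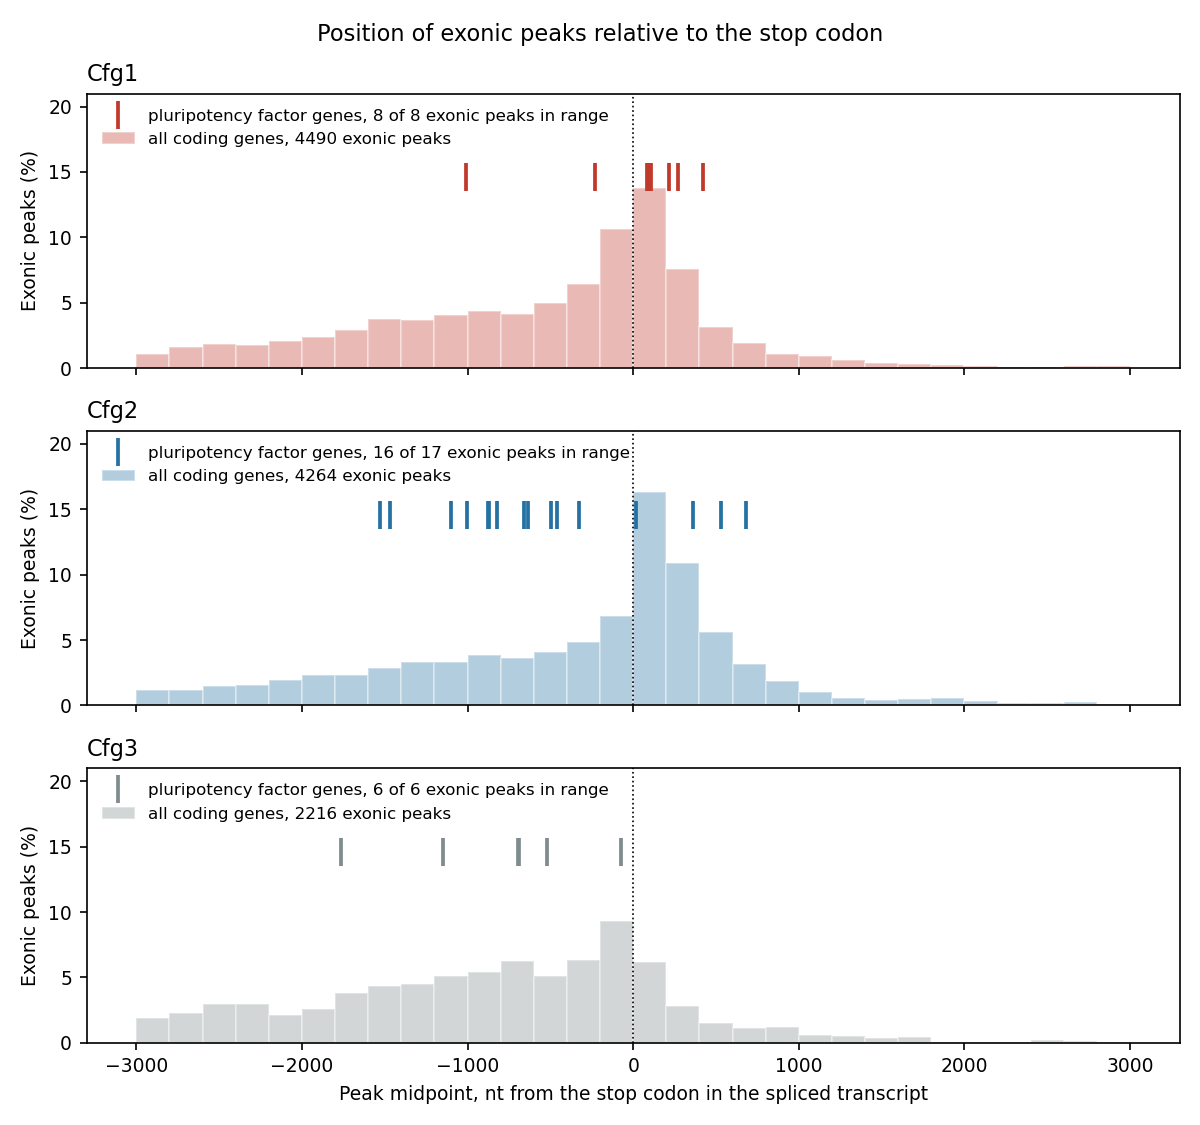
Distance of exonic peak midpoints from the stop codon (x axis, nt in the spliced transcript) for each list, as the percentage of exonic peaks of all protein-coding genes per bin of 200 nt (bars, y axis) and as a tick for each peak of the pluripotency factors, whose height has no meaning. The Cfg2 peak of Tfcp2l1, 7502 nt after the stop codon, lies outside the plotted range. Cfg1 ticks gather between 83 and 424 nt, and most Cfg2 ticks lie before the stop codon.

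Introns held 5 of the 36 peaks, in Klf4, Esrrb and Nr5a2, so 3 of the 10 genes had an intronic peak, against 38% of genes with a peak. Among SySy-called peaks the intron share was 7.41% (2 of 27, 2.06 to 23.4%), against 8.40% over all coding genes. Among Cfg3 peaks it was 33.3% (3 of 9, 12.1 to 64.6%), against 55.7%. The SySy-called intronic peaks were both those of Klf4, and no Cfg1 peak of the 10 genes was intronic.

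Cfg3 peaks abutted SySy-called peaks in Nanog and Nr5a2. Of the 9 Cfg3 peaks, 2 lay within 10 nt of a SySy-called peak on the same strand, as did 1.07% of the 5426 Cfg3 peaks in coding genes. Within 250 nt the counts were 3 of 9, with that of Sox2, and 11.2%. The remaining 6 lay at least 2806 nt from a SySy-called peak of the same gene.

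Per length of spliced transcript, the genes ranged from 0.108 exonic peaks per kb in Tfcp2l1 to 2.64 in Klf4, with a median of 0.870 against 0.399 over all 5511 genes with a peak. The 5511 include genes with no exonic peak, at 0 per kb, which lowers their median, whereas each of the 10 holds an exonic peak. A peak in overlapping genes was counted for each of them. Klf4 was followed by Klf2 with 2.17 and Sox2 with 1.46 exonic peaks per kb. Their spliced transcripts are 3029, 1847 and 2057 nt long, and 15, 63 and 254 genes had higher values. Nanog (0.905), Klf5 (0.895), Nr5a2 (0.845), Pou5f1 (0.734) and Tbx3 (0.618) followed, and neighbours in this order differed by less than what 1 peak of either gene adds per kb. Esrrb, at 0.477, and Tfcp2l1 were the lowest, and only Tfcp2l1 fell below the median of all genes. By the share of the transcript covered, the same 3 genes came foremost, and Pou5f1, with its single peak of 250 nt, moved from rank 7 to rank 4. All these values count the 3 lists together, and no median over all genes is given without Cfg3. Without Cfg3, Sox2 stood at 0.972, Nr5a2 at 0.634, Nanog at 0.452, Tbx3 at 0.412 and Klf5 at 0.298 peaks per kb. This changes their order, while the other genes hold no exonic Cfg3 peak.

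**Figure D4:**
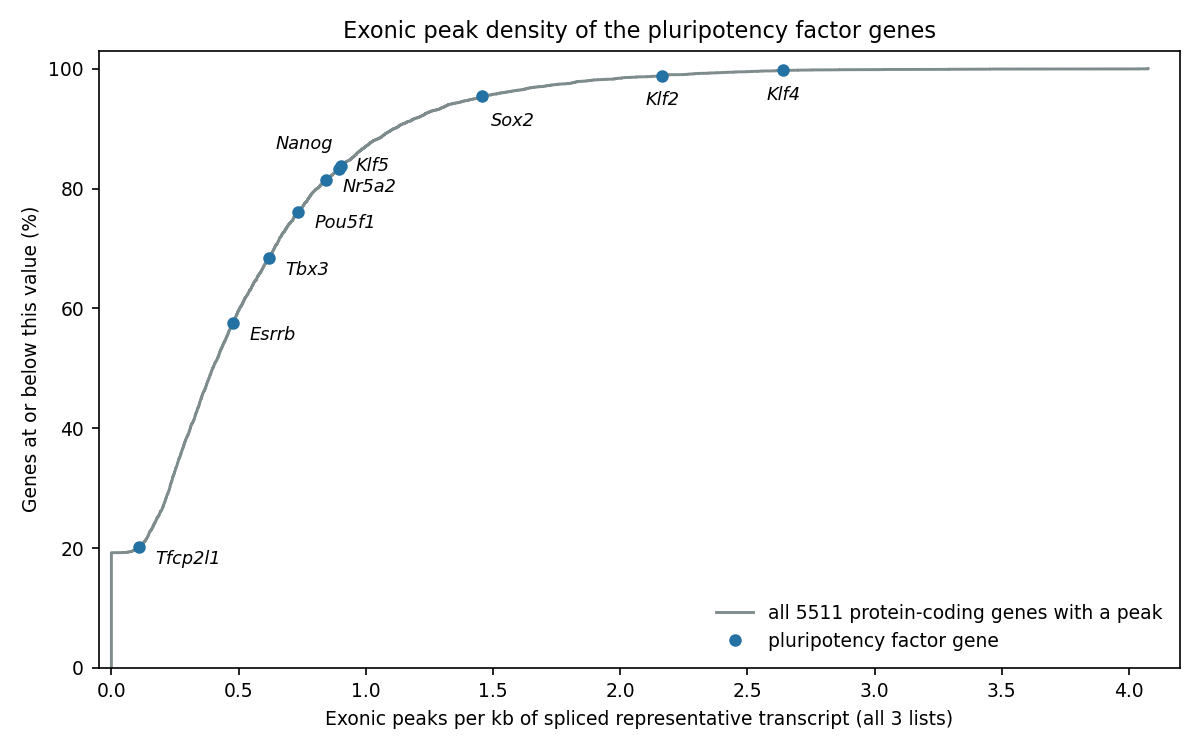
Cumulative share of the 5511 protein-coding genes with a peak (y axis, %) at or below a given number of exonic peaks per kb of spliced representative transcript (x axis), with the 10 pluripotency factor genes as points. Klf4, at 2.64, Klf2, at 2.17, and Sox2, at 1.46, stand at the upper end, and Tfcp2l1, at 0.108, near the lower end.

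The motif shares of the 36 peaks lay near those of other peaks. GGACT lay in 30.6% of them (11 of 36, 18.0 to 46.9%), against 28.6% of the peaks in coding genes. In windows of 100 nt at the midpoint, which do not depend on peak width, the shares were 22.2% and 19.7%. At least 1 of the 18 consensus pentamers lay in 35 of 36 peaks (97.2%) and in 96.2% of all peaks in coding genes, so that its presence sets few peaks apart. By list, GGACT was found in 3 of 8 Cfg1, 7 of 19 Cfg2 and 1 of 9 Cfg3 peaks, against 38.1%, 31.9% and 17.1% over coding genes. The share was lowest in Cfg3 in both. The pentamer with the most occurrences in the pluripotency factors was GGACC, found 15 times in 10 peaks, which is 2.51 per kb of peak against 1.56 in all coding genes, while GGACT stood at 2.17 against 2.105. GGACC was picked from the 18 after the counts were seen. All 18 together stood at 22.7 per kb in the pluripotency factors, against 25.1 in all coding genes.

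Peak width and base composition varied by list. The median width was 189.5 nt for Cfg1, 164 nt for Cfg2 and 131 nt for Cfg3, near the 199, 160 and 135 nt over all coding genes. The median GC content of the Cfg2 peaks was 64.8%, against 51.8% for all Cfg2 peaks in coding genes, and that of the Cfg1 peaks was 50.7%, as in all Cfg1 peaks (50.7%). The 10 Cfg2 peaks at or above 64.8%, the median of these genes' own Cfg2 peaks, were 5 of Klf4, all 3 of Klf2, and those of Sox2 and of the Klf5 5′ UTR. Their number follows from the definition of a median.

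Peaks also lay in other genes of the pathway. Of an extended network of 26 genes, 20 held a peak of any list, against 25.1% of all protein-coding genes. A Cfg1 peak lay in 14 of the 26 (12.2% of all protein-coding genes), a Cfg2 peak in 12 (13.7%) and a Cfg3 peak in 6 (13.3%). As above, genes with a peak are the nearer comparison, since the lists do not show which genes were transcribed. Of the 20 with a peak, 14, 12 and 6 held Cfg1, Cfg2 and Cfg3 peaks, against 48.4%, 54.6% and 52.8% of all genes with a peak. Rif1, a telomere-associated protein gene of the network, held 7 peaks, and Sall1 and Zfp281, both zinc-finger genes, held 5 each. Zfp42 (Rex1, a naive marker), Fgf4, Tcf7l1, Zscan10, Zfx and Nacc1 held 3 each. Dppa2, Dppa3, Dppa5a, Prdm14, Nr0b1 and Lin28a held none. Of the LIF receptor pathway, Il6st (the signalling subunit gp130) held 8 peaks, Lifr (the LIF receptor) 6, Socs3 (a feedback inhibitor) 3 and Jak1 1, while Stat3 held none. These 18 peaks were 12 Cfg1 and 6 Cfg3 with no Cfg2, whereas Cfg2 was the most frequent list in the factors and, without Klf4, as frequent as Cfg3. Over all peaks in coding genes, Cfg1 held 32.1%, Cfg2 32.4% and Cfg3 35.5%. The contrast was drawn after the counts were seen and was not tested. It rests on 4 genes, and peaks of 1 gene can share a call.

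Of 32 paralogues of the 10 factors, 19 held a peak, against 25.1% of all protein-coding genes. Krüppel-like paralogues carried 42 of their 64 peaks, in 10 of 12 genes, led by Klf12 with 9 peaks (7 intronic), Klf9 with 8 and Klf13 with 7 (6 in the 3′ UTR). Klf11 held 5, and Klf3, Klf10 and Klf15 held 3. Beyond that family, Sox4 and Ubp1 held 5 and Pou2f1 held 3. No peak lay in the chosen orphan nuclear receptor paralogues (4 genes) or T-box paralogues (3 genes), where Esrrb, Nr5a2 and Tbx3 held 12 together. The lists hold only some genes of each family, and Eomes, also a T-box gene, is counted below as a trophoblast marker. Lists of this size say little, since most protein-coding genes held no peak. Of 23 marker genes of other cells that such cultures can hold, 2 held a peak, against the same 25.1% of all protein-coding genes. Among 7 primitive endoderm and 5 fibroblast markers none held a peak, among 6 trophoblast markers Eomes held 1, and among 5 markers of the primed epiblast Otx2 held 5. All 6 of these were Cfg2 peaks, and Eomes and Otx2 were named after their values were seen. With no expression in the lists, these counts do not check the identity of the cells.

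**Figure D5:**
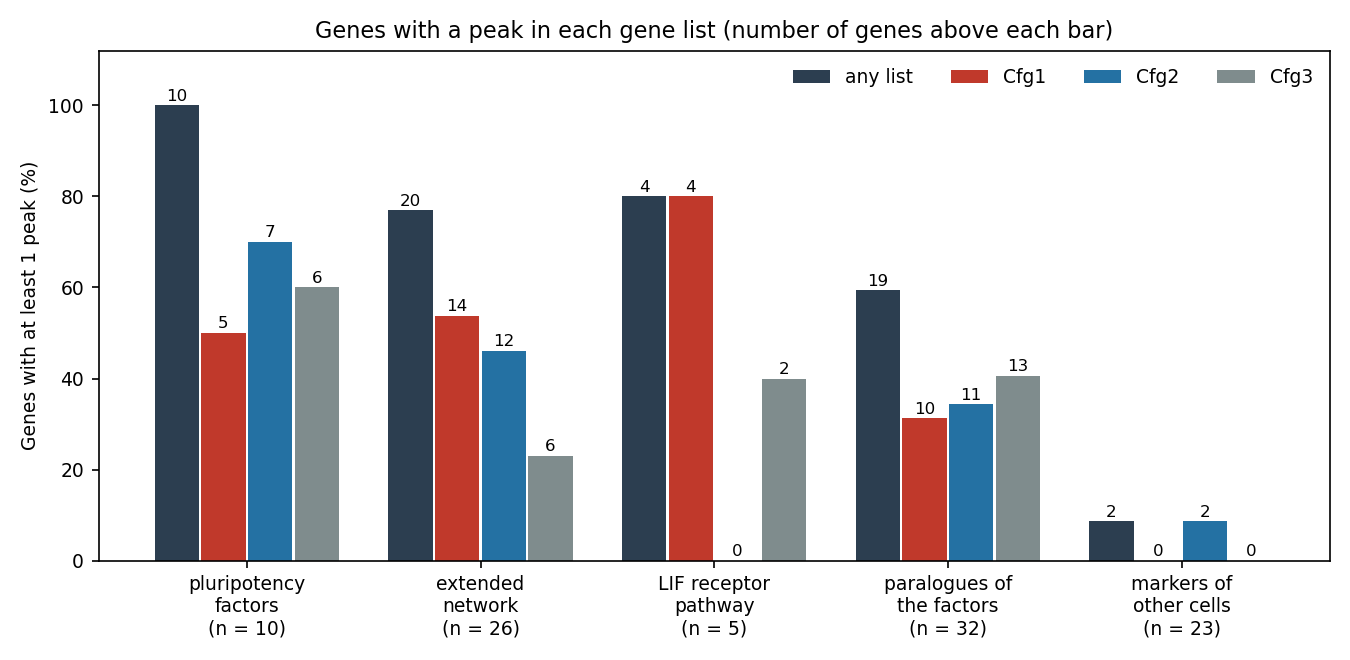
Share of genes with at least 1 peak (y axis, %) of any list and of each list, for the 10 pluripotency factors, 26 genes of the extended network, 5 of the LIF receptor pathway, 32 paralogues and 23 markers of other cells (x axis), with the number of genes above each bar. All 10 factors hold a peak and 2 of 23 markers do.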

How the data were processed

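m6A was measured by ChrMeRIP-seq in 8 libraries. The authors called peaks against input with MACS2 2.1.1 (version from the submitters' processing notes), pooling the duplicates of an antibody, divided broad peaks between summits, cut them to at most 250 nt, set the strand by the stronger enrichment, and searched motifs with HOMER. The aligner is not given in the sources used here. The deposited files are 3 lists of intervals on mm10. Their score column, as deposited by the authors, is 0 for all peaks, and the other columns used are start, end, strand and name. A stray character in the strand field of 1 Cfg2 peak was taken as plus.

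Intervals, counted from the first to the last base, were placed by midpoint on GENCODE vM21, an earlier release than the study's. The representative transcript was that with the longest coding sequence. Placement was tested on simulated positions, and 500 spliced transcripts of other genes and those of the 10 factors matched the assembly base for base. Depth is unknown, and intervals are 95% Wilson intervals. The genes, lists and alternatives were chosen with earlier results of these data known. Genes named are the 10 factors, genes of the network, LIF and paralogue lists with at least 3 peaks, and network and LIF genes with none, except for 1 gene that is not reported here. Jak1, Eomes and Otx2 were added after their values were seen. Python 3.11.15, numpy 2.4.6, scipy 1.17.1 and matplotlib 3.10.9 were used.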

Additional observations from a re-analysis of the deposited data

How the results depend on the processing

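Of 61 alternative values, 55 stayed within 1.5 times the count or within the interval of the share reported, and 6 did not. Several of the 55 could not have moved, so this count does not measure robustness. Klf4 holds no Cfg1 or Cfg3 peak, so leaving it out could not change those counts. Leaving out Cfg3 could not change the densities of Pou5f1, Klf4, Klf2 and Tfcp2l1, which hold no Cfg3 peak. The 10 of 10 genes with a SySy-called peak held on the span of the representative transcript. Any overlap, a longer span and either strand can only add peaks, so they could not lower it. Either strand added 1 Cfg2 peak (20), and joining peaks within 10 nt left 6 Cfg1, 13 Cfg2 and 8 Cfg3 regions. Leaving out Klf4, an alternative chosen after seeing the data, lowered the Cfg2 peaks from 19 to 9. Counting any of the 18 consensus pentamers in place of GGACT raised the share of peaks with a motif from 30.6% to 97.2%, since it adds 17 other pentamers. Within 100 and 400 nt of the stop codon lay 12.9% and 32.3% of exonic peaks, against 16.1% within 200 nt. Without Cfg3, peaks per kb, introns included, went from 0.905 to 0.452 in Nanog, from 0.895 to 0.298 in Klf5, from 0.953 to 0.477 in Esrrb and from 1.06 to 0.634 in Nr5a2. The falls in Sox2, from 1.46 to 0.972, and in Tbx3, from 0.618 to 0.412, were counted as within the limit. Taking the longest transcript of each gene as representative left the shares in exons, coding sequence and 3′ UTR and near the stop codon as they were. No paired analysis was possible because the lists were made from pooled duplicates and hold no value per library, and for the same reason no replicate could be left out.

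The counts are small, the width and number of peaks depend on how broad enrichments were split, and neither the strength of a peak nor the level of its transcript is in the lists.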

Other observations

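Peaks just outside the rule lay at Sox2 and Esrrb. A Cfg1 peak of 102 nt (chr3:34650044-34650145) lay 311 nt upstream of the start of Sox2 on the same strand, in an intron of Sox2ot, and held no GGACT. A Cfg2 peak of 102 nt (chr12:86461351-86461452) lay inside Esrrb on the opposite strand, where no other gene is annotated. Just inside the rule, the midpoints nearest to an end of their gene were those of Klf5 (174 nt), Tfcp2l1 (232 nt) and Pou5f1 (265 nt).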
